A study of Homo sapiens with 10 samples.

Results

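YAP5SA-expressing MCF10A cells were compared with MCF10A cells that carried an empty vector, using 6 of the 10 RNA-seq libraries of the study: MCF10A-YAP A and B, and MCF10A-control A to D. MCF10A is an established, non-tumorigenic epithelial cell line from human breast. All libraries came from this line, transduced, selected with an antibiotic and grown to near confluence in medium with horse serum, epidermal growth factor, insulin and hydrocortisone. YAP5SA was delivered by a lentiviral vector whose backbone carries an EF1 promoter and a blasticidin resistance gene, so its expression was constitutive and its cells were a selected, transduced population. The vectors of the MCF10A-TRAM2 libraries, which entered only the shared estimate of the spread, carried TRAM2.

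YAP, the product of YAP1, is a transcriptional coactivator. It has no DNA-binding domain of its own and reaches chromatin mainly through the TEAD factors. The kinases of the Hippo pathway phosphorylate it on serines, which holds it in the cytoplasm and marks it for degradation, and in YAP5SA these serines are replaced so that the protein remains active in dense or unstretched cells. Breast epithelial cells with active YAP are known for loss of contact inhibition and for a shift away from epithelial features.

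Poly(A) RNA was sequenced and the authors estimated the reads of each transcript with Salmon. The 6 libraries held between 8489854 (control D) and 13556672 (MCF10A-YAP5SA B) estimated reads. Control A and C, and likewise control B and D, agreed within about the sampling noise. In genes averaging 50 or more reads in the pair, whose estimates were whole numbers (within 0.001) in all libraries, the chi-square per degree of freedom was 1.00 for A with C (p = 0.467, chi-square test over 1449 genes) and 0.999 for B with D (p = 0.503, 1400 genes), against 1.16 to 1.24 between the other controls and 1.21 for the MCF10A-YAP5SA pair. When only the pair itself had to be whole, the chi-square test gave 1.01 for A with C (p = 0.356 over 3646 genes) and 1.05 for B with D (p = 0.021 over 3704 genes), so B and D differed slightly more than counting error gives. Over all genes at that level, fractional estimates included, the values were 1.23 and 1.22, against 1.42 to 1.49 for the other control pairs. Each such pair was counted as 1 sample, control 1 and control 2, with 21542413 and 18511936 estimated reads. The design text of the series gives 3 biological replicates a condition, while 2 MCF10A-YAP5SA libraries were analysed here, so all p-values measure the spread between samples that may be technical. MCF10A-YAP5SA A and B came from the first of the 2 runs named in the data, and within that run alone 2340 genes were called higher and 2062 lower, against 2414 and 2219 with both runs.

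The labels were checked on known genes. Levels are in CPM, estimated reads per 1000000 of the sample's total in the genes tested, after that total was scaled between samples. ANKRD1, a standard YAP target, had 0 and 0.431 CPM in control 1 and 2 and 414 and 412 CPM in MCF10A-YAP5SA A and B. CCN1 went from 11.7 and 15.0 CPM to 564 and 559, CCN2 from 8.47 and 7.97 to 212 and 226, and VIM from 10.5 and 11.9 to 528 and 547. Keratins of epithelial cells were present in both groups, although 13 of the 22 keratin genes tested fell. KRT5, a basal keratin, fell from 1646 and 1653 CPM to 846 and 874. KRT7, a simple-epithelial keratin, was at 4054 and 4106 CPM in the controls and 4052 and 4052 CPM with YAP5SA. The basal keratin KRT14 was at 56.6 and 56.7 CPM in the controls and 55.1 and 51.1 CPM with YAP5SA, and neither KRT7 nor KRT14 passed the test. The basal factor TP63, chosen as a marker that is high in MCF10A, was low in the controls, at 3.11 and 2.48 CPM, and fell to 0.0841 and 0.155. The receptor genes ESR1 and PGR were chosen as markers that are absent from MCF10A. ESR1 was nevertheless at 5.49 and 5.55 CPM in the controls and at 2.19 and 3.25 CPM with YAP5SA, a fall that passed the test. PGR was at 0 in both groups.

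YAP1 itself rose less than its targets. It was at 186.9 and 186.7 CPM in the controls and at 337 and 342 CPM with YAP5SA, a log2 fold change of 0.86 ± 0.05 (SE, n = 2 a group, edgeR adjusted p = 4.0e-09). YAP1 lies on the plus strand of chromosome 11 (chr11:101981178-102104155, GRCh37). The rise lay almost wholly in the 1490-nucleotide coding transcript YAP1-208, which went from 20.3 and 19.4 TPM (transcripts per 1000000, scaled by length) to 73.9 and 78.9 TPM. The 5401-nucleotide coding transcript YAP1-201 was at 6.47 and 7.54 TPM in the controls and at 8.31 and 7.49 TPM with YAP5SA, so its groups overlapped. YAP1-208 thus took 46.3% and 45.1% of the gene's TPM in the controls and 77.1% and 77.1% with YAP5SA. Reads of the introduced coding sequence and of the cell's own gene cannot be told apart in these values.

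**Figure D1:**
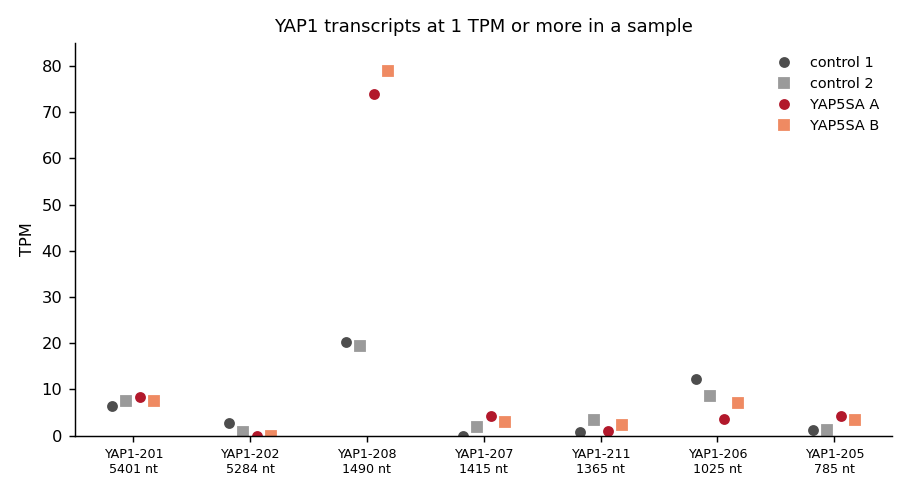
TPM (vertical axis) of each YAP1 transcript that reached 1 TPM in a sample, with its length in nucleotides under its name; each point is 1 sample. YAP1-208 stands at 73.9 and 78.9 TPM in MCF10A-YAP5SA against 20.3 and 19.4 TPM in the controls, while YAP1-201 overlaps between the groups.

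The transcriptome was broadly remodelled. Of 15768 genes tested, 2414 (15.3%) were called higher and 2219 (14.1%) lower in MCF10A-YAP5SA, for which edgeR's quasi-likelihood test gave an adjusted p under 0.05 (Benjamini-Hochberg over all genes) and the log2 fold change exceeded 0.5 in size. The median log2 fold change of all genes was -0.01. Changes over 1 on the log2 scale were found for 1273 higher and 1219 lower genes, over 3 for 282 and 335, and over 5 for 110 and 112. In all, 82 genes went from at most 0.1 CPM on average in the controls to at least 1 CPM, and 71 genes went the opposite way. Calls were commonest among protein-coding genes, of which 2100 (16.8%) rose and 1913 (15.3%) fell of 12523. Among 1918 long noncoding RNA genes 230 rose and 226 (11.8%) fell, and among 918 pseudogenes 53 rose and 43 fell.

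The balance of rises and falls varied with the level of the gene. Above a mean of 100 CPM, 356 of 2156 genes rose (16.5%) and 155 fell (7.19%), whereas below 1 CPM 149 of 1892 rose (7.88%) and 274 fell (14.5%). The genes called higher held 9.45% ± 0.03 (SD, n = 2) of all estimated reads in the controls and 21.2% ± 0.04 with YAP5SA. The genes called lower held 11.3% ± 0.03 and 5.35% ± 0.02. These shares describe genes that were chosen by the same contrast and were not tested. Genes that were not called held 79.0% of the reads in control 1 and 73.3% in MCF10A-YAP5SA A. In bulk RNA, a lower level from fewer expressing cells and one from less RNA per cell cannot be told apart.

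The 12 protein-coding genes with the largest gain in mean TPM, which included ANXA2, FN1, HIST1H2BJ, KRT8, THBS1, MT2A, TPM1, MYL6, C12orf75, ITGB1 and ASPH, together made up 22% of the TPM gained by all genes called higher. FN1, which encodes the matrix protein fibronectin, went from 360 and 354 CPM to 15298 and 15315 CPM, a log2 fold change of 5.42 ± 0.35 (SE). In the MCF10A-TRAM2 libraries, whose spread enters that SE, FN1 was at 401 to 668 CPM. ANXA2, a calcium-dependent membrane-binding protein that recruits plasminogen activation to the cell surface, went from 3032 and 3100 CPM to 6684 and 6682. In both genes the 2 MCF10A-YAP5SA samples lay above both controls, and the groups were separated by far more than the spread within them.

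TPM1, which encodes an actin-binding tropomyosin, rose from 142 and 144 CPM to 963 and 969 (log2 fold change 2.75 ± 0.06, edgeR adjusted p = 3.3e-13). MYL6, a myosin light chain, rose from 669 and 692 CPM to 1058 and 1056. ITGB1, the integrin beta chain shared by most fibronectin and collagen receptors, rose from 1227 and 1244 CPM to 2344 and 2302. ASPH, an aspartyl hydroxylase of the endoplasmic reticulum, went from 636 and 653 CPM to 1506 and 1479, and the metallothionein gene MT2A from 533 and 513 CPM to 1025 and 1042. C12orf75 rose from 72.9 and 77.1 CPM to 262 and 266. KRT8, a simple-epithelial keratin, rose from 995 and 1057 CPM to 1987 and 2007.

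HIST1H2BJ, which encodes a histone H2B, stood apart from its family. It was at 95.7 and 100.5 CPM in the controls, between 104 and 204 CPM in the MCF10A-TRAM2 libraries, and at 885 and 861 CPM with YAP5SA (log2 fold change 3.15 ± 0.37, edgeR adjusted p = 0.0010). The other 12 histone H2B genes tested lay between 0.155 and 11.9 CPM in all control and MCF10A-YAP5SA samples. Of these 12, 1 rose (HIST1H2BK, from 6.04 and 5.76 CPM to 11.9 and 10.7), 1 fell and 10 were not called. The study's methods describe an H2B-GFP vector and lines of both MCF10A and MCF10A-YAP5SA that carried it. The sources used here do not say whether the cells of these libraries carried it, and its part in the HIST1H2BJ value was not tested.

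By TPM, the largest losses were concentrated in fewer genes than the largest gains. KRT6A, S100A2, LDHA, MT-CO2, MGST1, ADIRF, C3, FTH1, KRT15, PTMA, KRT5 and MCM4 made up 46.0% of the TPM lost by all genes called lower. KRT15, a keratin of basal epithelial cells, fell most steeply, from 1702 and 1777 CPM to 27.3 and 29.7 (log2 fold change -5.93 ± 0.10). ADIRF went from 63.7 and 69.7 CPM to 7.32 and 9.14. S100A2, a calcium-binding protein of stratified epithelia, went from 847 and 884 CPM to 175 and 166, and C3, the central complement component, from 729 and 723 CPM to 168 and 177. MGST1, a membrane-bound glutathione transferase, went from 368 and 390 CPM to 163 and 172. The iron-storage gene FTH1 went from 1933 and 1986 CPM to 1179 and 1193, and LDHA, which makes lactate dehydrogenase, from 1578 and 1613 CPM to 1084 and 1061.

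Ranking by TPM favours short transcripts. Transcripts of at most 300 nucleotides held 39.8% to 40.9% of all TPM in the 4 samples but 1.21% to 1.35% of the estimated reads. When the genes were ranked by CPM in place of TPM, 7 of the 12 gains and 9 of the 12 losses were shared. By that ranking the 2 largest gains were 14950 CPM in FN1 and 7351 CPM in THBS1. The 2 largest losses were -2396 CPM in MT-CO2 and -1711 CPM in KRT15. The shares of 22% for gains and 46.0% for losses hold for TPM. Shares by CPM were not computed, so the order of the 2 shares cannot be carried over to reads.

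Start regions of the YAP targets and of the most increased genes were searched for GGAATG, the core of the TEAD binding motif, on either strand. They were taken from the RefSeq promoter table (GRCh38.p14), which covers 250 bases before to 50 bases after the start and matched 10267 of the 12523 protein-coding genes tested (82.0%). ANKRD1 held 2 matches and CCN2 held 3, of which the last 2 windows overlap. CCN1 held none before its start. Of the 12 most increased genes, THBS1 and ITGB1 held a match before the start, and ASPH had no entry. The windows are shown 5′ to 3′ on the strand of the gene, with the match in capitals.
ANKRD1, minus strand, chr10:90921282-90921327: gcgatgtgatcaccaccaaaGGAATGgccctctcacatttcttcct
ANKRD1, minus strand, chr10:90921190-90921235: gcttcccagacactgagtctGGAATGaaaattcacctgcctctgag
CCN2, minus strand, chr6:131951516-131951561: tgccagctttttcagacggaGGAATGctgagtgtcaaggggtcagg
CCN2, minus strand, chr6:131951451-131951496: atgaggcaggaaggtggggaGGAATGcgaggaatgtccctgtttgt
CCN2, minus strand, chr6:131951442-131951487: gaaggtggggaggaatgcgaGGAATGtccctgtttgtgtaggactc
THBS1, plus strand, chr15:39581013-39581058: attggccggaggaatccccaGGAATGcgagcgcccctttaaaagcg
ITGB1, minus strand, chr10:32958387-32958432: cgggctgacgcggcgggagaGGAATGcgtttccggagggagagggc

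Across genes, GGAATG was found in 236 of 1720 start regions of genes called higher (13.7%), in 134 of 1493 of genes called lower (8.98%) and in 735 of 7054 of genes not called (10.4%). It was present in 14% of all 35116 start regions of the table. The longer form CATTCCA, which contains the reverse complement of the first, was found in 3.84%, 2.81% and 1.86% of the 3 sets and in 4.18% of the table. No test was made of these shares, and the search covers only the bases around the start.

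Genes of the cytoskeleton and its links to the matrix rose more often than they fell. Each list is read against the 15.3% of all genes that rose and the 14.1% that fell, and counts its members that passed the filter on low counts. Of 43 focal adhesion scaffold and kinase genes, 21 rose and 3 fell (median log2 fold change 0.49). Of 69 actin-binding and contractile genes, 29 rose and 10 fell (median 0.23). Among 41 tubulins and microtubule-associated genes 16 rose and 5 fell (median 0.34). PARVA, which links integrins to actin, was at 32.5 and 32.0 CPM in the controls and 111 and 115 CPM with YAP5SA. The LIM protein AJUBA, which can bind the Hippo kinases, went from 37.8 and 37.6 CPM to 117 and 112. FERMT1, the kindlin of epithelial cells, moved the other way, from 171 and 169 CPM to 44.7 and 46.3. All 3 changes were many times the SE of the log2 fold change, which was 0.06 to 0.07.

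Other members of these lists moved in both directions. CDC42EP3, an effector of CDC42, rose from 149 and 150 CPM to 407 and 415. The formin DIAPH3 went from 132 and 132 CPM to 296 and 296, and the actin-binding coronin CORO1C from 154 and 146 CPM to 385 and 388. The actin-binding ABLIM1 fell from 155 and 157 CPM to 49.9 and 47.2. The beta-tubulin TUBB6 rose from 142 and 142 CPM to 402 and 398, the kinesin KIF13A rose with it (log2 fold change 1.48), and MAP7, a microtubule-binding protein of epithelia, fell (log2 fold change -1.84). Caveola genes rose in 6 of 13 and fell in 1, led by CAVIN1, the coat protein of caveolae, from 350 and 353 CPM to 833 and 820. Primary cilium genes rose in 11 of 51 and fell in 2, among them GLI2, a Hedgehog effector, at 0.0915 and 0.269 CPM in the controls and 5.89 and 7.35 CPM with YAP5SA.

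Proteoglycan and coagulation genes held calls in both directions, with more rises than falls. Of 41 heparan and chondroitin sulfate proteoglycan genes 18 rose and 8 fell (median log2 fold change 0.39). SRGN, the core protein of the granule proteoglycan serglycin, was at 0.458 and 0.593 CPM in the controls and at 144 and 144 CPM with YAP5SA, a log2 fold change of 8.09 ± 0.16 (edgeR adjusted p = 8.6e-14). SRGN (chr10:70847859-70864561, GRCh37, plus strand) was thus near the limit of detection in every control and well expressed in every MCF10A-YAP5SA sample. EXT1, a polymerase of heparan sulfate chains, rose from 67.4 and 68.5 CPM to 233 and 236, and SULF2, which removes sulfate groups from these chains outside the cell, fell from 186 and 186 CPM to 42.7 and 38.2. Of 30 complement and coagulation genes 13 rose and 6 fell (median 0.30). PROS1, the anticoagulant protein S, went from 4.76 and 4.58 CPM to 138 and 134, whereas the serpin SERPINA3 went from 37.3 and 39.2 CPM to 1.35 and 1.86.

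Factors and enzymes of epithelial identity fell more often than they rose. Of 39 ETS, GRHL and other factors of epithelial context, 5 rose and 15 fell (median log2 fold change -0.24). EHF, an ETS factor restricted to epithelia, was at 42.2 and 38.5 CPM in the controls and at 0.420 and 1.08 CPM with YAP5SA (log2 fold change -5.71 ± 0.18). In the same list RUNX2, a regulator of bone development, rose from 2.52 and 2.59 CPM to 33.5 and 36.1, and GATA3, a factor of mammary luminal cells, rose from 19.6 and 19.9 CPM to 77.0 and 82.0. FOXA1, another luminal factor, fell from 11.8 and 11.3 CPM to 1.51 and 1.47. Mucin-type glycosylation genes fell in 13 of 34 and rose in 6, with B3GNT3, which extends these glycans, going from 69.4 and 74.9 CPM to 12.2 and 10.9 and GCNT1, which branches them, from 49.5 and 54.0 CPM to 119 and 128.

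Prostaglandin and leukotriene genes fell in 9 of 23 and rose in 3 (median log2 fold change -0.47). PTGES, which makes prostaglandin E2, was at 478 and 489 CPM in the controls and 106 and 110 CPM with YAP5SA. The prostaglandin transporter SLCO2A1 fell from 14.6 and 14.2 CPM to 0.925 and 1.16. HPGD, the enzyme that inactivates prostaglandins, was at 4.39 and 3.12 CPM in the controls and had no estimated read in either MCF10A-YAP5SA sample. These 3 genes of synthesis, transport and breakdown were all below the controls in every MCF10A-YAP5SA sample. The list of ceramide and barrier lipid synthesis genes was divided, with 8 of 28 higher and 5 lower. UGCG, which adds glucose to ceramide, rose from 33.3 and 35.6 CPM to 117 and 117, and SPTLC3, a subunit of serine palmitoyltransferase, fell from 48.6 and 45.3 CPM to 12.2 and 15.3.

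Guidance, channel and transporter genes changed often and in both directions. Synaptic and neuronal adhesion genes rose in 14 of 40 and fell in 14. UNC5B, a netrin receptor, fell from 25.9 and 24.5 CPM to 0.168 and 0.155 (log2 fold change -7.22 ± 0.24), and SLIT2, a secreted guidance ligand, rose from 2.65 and 3.18 CPM to 41.1 and 38.2. Ion channel genes rose in 16 of 49 and fell in 11. SCN9A, a voltage-gated sodium channel of sensory neurons, was at 0.870 and 0.377 CPM in the controls and at 47.3 and 50.8 CPM with YAP5SA (log2 fold change 6.24 ± 0.22). SCNN1A, the alpha subunit of the epithelial sodium channel, fell from 280 and 290 CPM to 111 and 108. Of 28 solute carriers for amino acids and sugars 8 rose and 11 fell, and the cationic amino acid transporter SLC7A2 rose from 2.33 and 2.15 CPM to 24.2 and 26.1.

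Clock, nuclear receptor and signalling lists held many calls. Circadian clock genes fell in 10 of 21 and rose in 3, with the lowest median of the function lists at -0.61. BHLHE41, a repressor of the clock, fell from 33.7 and 34.6 CPM to 0.589 and 0.774. ARNTL, the positive clock factor BMAL1, fell from 34.7 and 37.8 CPM to 11.6 and 12, and its relative ARNTL2 fell from 131 and 129 CPM to 69.8 and 63.1. Nuclear receptors rose in 8 of 27 and fell in 10. NR2F2, an orphan receptor of mesenchymal tissue, rose from 43.8 and 44.4 CPM to 152 and 148, and the vitamin D receptor VDR fell from 78.9 and 82.9 CPM to 40.6 and 37.3. Feedback and immediate early genes of the ERK pathway rose in 12 of 42 and fell in 9. RGS3, which ends G-protein signals, fell from 28.4 and 28.2 CPM to 1.35 and 1.78, and the phosphatase gene DUSP1 rose from 35.4 and 35.8 CPM to 88.0 and 89.2. In the AKT and mTOR list, 9 of 46 rose and 10 fell, and DDIT4, an inhibitor of mTOR complex 1, fell from 314 and 319 CPM to 65.4 and 61.2. p53 target genes rose in 10 of 39 and fell in 5.

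Lists of basic cell machinery held few calls or none. Neither edgeR nor DESeq2 called any of 45 cytosolic ribosomal protein genes (0 calls), with a median log2 fold change of 0.01 and a range from -0.23 to 0.24, and 6 of them had an adjusted p under 0.05 below the size limit. RPL5 was at 1958 and 1970 CPM in the controls and 1888 and 1893 CPM with YAP5SA. Translation factors rose in 2 of 47 and fell in none. Aminoacyl-tRNA synthetases rose in 1 of 23 and fell in none, but their median log2 fold change was -0.27 and 18 had an edgeR adjusted p under 0.05. Their summed level was 3645 and 3685 CPM in the controls and 3233 and 3223 CPM with YAP5SA. Proteasome subunits rose in 1 of 37 and fell in none. That subunit, PSMD2, a non-ATPase subunit of the regulatory particle, rose from 376 and 380 CPM to 692 and 695. The translation factor EIF5A2 rose from 7.87 and 7.27 CPM to 28.9 and 31.7. Mitochondrial ribosomal protein genes fell in 7 of 55 and rose in 1 (median -0.23), and the count of lower genes ran from 3 to 7 over the alternatives. In this list 34 genes had an edgeR adjusted p under 0.05. DNA repair genes rose in 1 of 55 and fell in 3, and genes of RNA 3′ end processing and decay rose in 2 of 57 and fell in 1.

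In the metabolic lists most members were not called, though most members of each had an edgeR adjusted p under 0.05. Of 33 serine, one-carbon and amino acid synthesis genes 3 rose and 8 fell (median log2 fold change -0.18). ASS1, which makes argininosuccinate, went from 85.8 and 91.8 CPM to 34.3 and 30.4. SLC7A11, the cystine importer, rose from 16.4 and 17.1 CPM to 74.6 and 79.1. Fatty acid oxidation and peroxisome genes fell in 8 of 37 and rose in 3 (median -0.17). Glycolysis and pentose phosphate genes fell in 3 of 29 and rose in 1, namely the neuronal enolase ENO2. In the list of citric acid cycle and related enzymes, 2 of 31 genes fell (IDH1 and PC) and 1 rose (ACO1). PC, which feeds the cycle through oxaloacetate, fell from 10.5 and 9.16 CPM to 2.86 and 3.95. Nucleotide synthesis genes rose in 3 of 30 and fell in 1. Lysosome and autophagy genes leaned the other way, with 12 of 45 higher and 4 lower (median 0.26), although CTSD, the lysosomal protease cathepsin D, fell from 140 and 149 CPM to 46.9 and 48.6.

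Cytosolic chaperones fell in 6 of 33 and rose in 2. DNAJB4, a J-domain cochaperone, was at 14.1 and 13.7 CPM in the controls and at 303 and 306 CPM with YAP5SA (log2 fold change 4.45 ± 0.15, edgeR adjusted p = 4.5e-08). The small heat shock protein gene HSPB1 fell from 574 and 579 CPM to 245 and 256. DNAJB4 (chr1:78444859-78483648, GRCh37, plus strand) was 1 of the 2 risers, and the other, DNAJB6, went from 115 and 114 CPM to 202 and 196.

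Markers of other cell types were measured in the same way. The summed level of 31 endothelial, pericyte and leukocyte markers was 63.5 to 65.0 CPM in the controls and 56.5 to 62.3 CPM with YAP5SA. Of these, VWF, CLDN5, CD3E and ITGAM were among 11 at 0 in all 4 samples. Of the 8 tested, 4 fell and 1 rose, and PECAM1 fell from 7.69 and 7.70 CPM to 0.336 and 0.155. The 24 fibroblast and myofibroblast markers summed to 242 and 245 CPM in the controls and to 1126 and 1124 CPM with YAP5SA. Of the 8 of them tested, 5 rose and 2 fell, with log2 fold changes from -2.09 to 6.29 (median 1.71). The collagen gene COL1A1 fell from 2.84 and 3.77 CPM to 0.925 and 0.619 (log2 fold change -2.09). MFAP5, a microfibril protein, rose from 2.15 and 1.78 CPM to 158 and 154, and FBLN1, fibulin 1, from 92.4 and 95.7 CPM to 400 and 410, while THY1 and CTHRC1 were among 5 at 0 in all 4 samples. The 27 mammary luminal and milk genes summed to 2588 and 2670 CPM in the controls and 4242 and 4388 CPM with YAP5SA, with the milk protein genes CSN2, CSN3 and LALBA among 15 at 0. Of the 10 tested, 5 rose and 5 fell (median log2 fold change -0.255). KRT8 was a large part of the sum, at 995 and 1057 CPM in the controls and 1987 and 2007 CPM with YAP5SA. The part of these marker levels in the other changes was not tested.

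Families that share a symbol root gave a second view without chosen lists. Among 22 keratin genes 6 rose and 13 fell, the largest share of calls in a family of at least 20 genes. The risers included KRT34, a hair keratin, from 0.0915 and 0.108 CPM to 26.8 and 24.5, and KRT4, a keratin of mucosal epithelium, from 0.503 and 0.485 CPM to 27.1 and 26.2. KRT16, a keratin of stressed epidermis, fell from 132 and 140 CPM to 12.8 and 14.5. KRT17 rose from 267 and 279 CPM to 442 and 465 (edgeR adjusted p = 0.040), a call lost without any 1 of the 4 control or MCF10A-YAP5SA samples. Near-identical keratin copies such as KRT6A, KRT6B and KRT6C share reads, and their split is uncertain.

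Genes with the root SEC, which include those of vesicle coats and the translocon, rose in 10 of 24 and fell in 1. The fall was SEC14L2, which like the riser SEC14L1 belongs to neither class. SEC24D, a cargo adaptor of COPII vesicles, went from 16.8 and 20.8 CPM to 81.2 and 75.7. SEC23A, another coat subunit, went from 79.4 and 80.8 CPM to 166 and 169. Interleukin and interleukin receptor genes fell in 14 of 36 and rose in 5. METTL methyltransferase-like genes fell in 5 of 20 and rose in none, and TRIM genes fell in 7 of 40 and rose in 1. Among 411 zinc finger genes with the root ZNF, 46 rose and 27 fell, below the share over all genes in each direction.

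Neighbouring genes were then read in order along the chromosomes (GRCh37) for 15568 tested genes with a position. There were 20 runs of at least 5 neighbouring tested genes called in the same direction, 8 higher with 54 genes and 12 lower with 75. The PSG genes on chromosome 19 formed a run that rose from near 0 (chr19:43225790-43867324). These genes encode glycoproteins secreted by the placenta. PSG3, PSG1, PSG6, PSG11, PSG2, PSG5, PSG4 and PSG9 with their neighbour CD177 summed to 0.824 and 1.82 CPM in the controls and to 188 and 189 CPM with YAP5SA. PSG4 held most of it, from 0.183 and 0.593 CPM to 111 and 117. PSG genes are near-identical copies, so the division of reads between them is uncertain.

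A second chromosome 19 run joined 9 genes called higher, ZNF85, ZNF430, ZNF714, VN1R81P, ZNF431, VN1R82P, ZNF708, ZNF738 and ZNF493 (chr19:21106028-21610379). Its sum went from 74.6 and 71.4 CPM to 267 and 262, and ZNF431, a zinc finger gene with a KRAB domain, accounted for most, from 23.2 and 22.5 CPM to 159 and 150. On the X chromosome 9 genes from TCEAL8 to TMSB15B rose together (chrX:102507923-103221285), with a summed level of 383 and 390 CPM in the controls and 823 and 794 CPM with YAP5SA. Of these, TCEAL9 went from 21.0 and 20.7 CPM to 113 and 107. TCEAL genes encode small proteins related to a transcription elongation factor.

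Among the runs that fell was a block of S100 genes, which encode small calcium-binding proteins. S100A4, S100A3, S100A2, S100A16, S100A14 and S100A13 with 3 noncoding neighbours (chr1:153516089-153606873) summed to 1564 and 1634 CPM in the controls and 435 and 417 CPM with YAP5SA. Within it S100A14 fell furthest, from 284 and 302 CPM to 11.7 and 9.37. The 8 genes from IRX3 to GNAO1 (chr16:54317216-56391356) went from 128 and 129.5 CPM to 48.5 and 48.0, with the homeobox genes IRX3 and IRX5 both lower: IRX5 was at 22.2 and 23.2 CPM in the controls and 7.06 and 6.81 CPM with YAP5SA. A shorter run, named after its values were seen, held the kallikrein proteases KLK5 to KLK10 and CTU1 (chr19:51446559-51611666). Its sum fell from 410 and 449 CPM to 3.87 and 3.72, which is 113-fold lower. KLK5 was at 224 and 249 CPM in the controls and at 1.01 and 1.08 CPM with YAP5SA.

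Several run members lost their call in at least 1 alternative, among them ZNF85, ZNF493, ZNF738 and CTU1, which are at low level, and S100A13, whose log2 fold change of -0.51 lies at the size limit.

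Long noncoding RNA genes at 5 CPM or more were ranked by fold change. LNCOG rose from 0.229 and 0.162 CPM to 18.6 and 20.7 (log2 fold change 6.58 ± 0.34) and LINC01085 from 0.366 and 0.754 CPM to 34.1 and 35.9. LMO7-AS1 went from 0.183 and 0.162 CPM to 4.62 and 5.88. MEG3, an imprinted noncoding RNA expressed from the maternal allele, went from 3.02 and 1.78 CPM to 55.2 and 59.0 (log2 fold change 4.54 ± 0.37). These 4 genes were near 0 or low in both controls and clearly expressed in both MCF10A-YAP5SA samples. Among those that fell, SH3PXD2A-AS1 went from 10.7 and 11.9 CPM to 0.0841 and 0.465, SCAT8 from 6.22 and 5.87 CPM to 0.336 and 0.465, AL035661.1 from 10.8 and 10.3 CPM to 1.18 and 1.55 and AC108925.1 from 7.05 and 6.09 CPM to 0.589 and 1.24. The study's methods describe a stranded kit, while the labels name a kit without that word and no source used here gives the strand setting of the estimates, so for LMO7-AS1 and SH3PXD2A-AS1 the reads of an antisense gene and its partner may be mixed.

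Splicing regulators as a list were little changed, with 5 of 61 higher and 7 lower (median log2 fold change -0.03), but the epithelial ones were among the 7. ESRP1, which drives epithelial exon choice, was at 171 and 173 CPM in the controls and 30.1 and 33.8 CPM with YAP5SA, and its relative ESRP2 fell from 52.1 and 54.1 CPM to 27.4 and 25.5. RBM47, an RNA-binding protein of epithelia, fell from 32.9 and 31.0 CPM to 1.51 and 1.86 (log2 fold change -4.23 ± 0.15), and RBMS3, an RNA-binding protein of mesenchymal cells, rose from 0.778 and 0.646 CPM to 19.7 and 20.4. RBFOX2, QKI and MBNL1, which are known for mesenchymal exon choice, had log2 fold changes of 0.20, 0.23 and 0.42 and were not called.

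Transcript usage, the share of each transcript in the TPM of its gene, was compared for 28701 transcripts of 8933 genes. In 133 genes (1.49%) usage was called as changed, at an adjusted p under 0.05 from edgeR's test of transcript usage and a shift of at least 10 percentage points for 1 transcript, and in 53 of them the shift was at least 20 points. The count varied with the method more than the gene-level counts did: limma's version of the test called 42 genes, 37 of them among the 133, and leaving out MCF10A-YAP5SA A gave 216 and leaving out B gave 313. At the gene level 82 of the 133 were not called, 18 were higher and 33 lower. The gained and the lost transcript differed in start by more than 200 bases in 79 genes and in end in 79. Their coding sequence differed in 52 genes and was the same in 17. In 58 genes 1 or both of the transcripts had no coding sequence, and in 6 the pair was not placed. Salmon's uncertainty in assigning reads to transcripts was not part of the test, so a transcript listed at 0 may be a failed estimate.

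Of 47 tested genes from a list of known splicing switches, 6 were called: YAP1, TPM4, TPM1, SLK, CALD1 and CD44. YAP1 is the gene of the vector, so its call cannot be told apart from reads of the introduced coding sequence. SLK, a serine/threonine kinase of the cytoskeleton on chromosome 10 (chr10:105726898-105788991, GRCh37), had the clearest exchange between full-length coding transcripts. SLK-201 was listed at 0 in both controls and took 14.1% and 11.9% of the gene's TPM with YAP5SA, and SLK-202 went from 27.2% and 29.4% to 11.1% and 15.8% (edgeR adjusted p = 2.3e-09). Taking the pair alone, SLK-201 held 0% and 0% in the controls and 56.0% and 43.1% with YAP5SA, without overlap. The transcripts share their end and start within 61 bases, and SLK-202 contains a 93-base exon, a multiple of 3, that SLK-201 lacks. Most of the gene's remaining TPM lay on the short noncoding transcript SLK-203. The exon lies at chr10:105770574-105770666 on the plus strand and is shown because it is the base sequence that was included less.
SLK exon in SLK-202: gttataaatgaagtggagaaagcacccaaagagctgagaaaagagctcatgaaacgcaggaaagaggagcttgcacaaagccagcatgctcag

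SLK was called under 12 of 13 alternatives, the exception being the limit of 20 points. The gene itself fell from 311 and 308 CPM to 211 and 202.

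CD44, the hyaluronan receptor on chromosome 11 (chr11:35160429-35253949), is known for variant exons that epithelial cells include. Its level was 581 and 602 CPM in the controls and 681 and 689 CPM with YAP5SA and was not called. A 99-base exon was part of 31.6% and 30.1% of the TPM that spanned it in the controls and of 13.8% and 11.3% with YAP5SA, and a 114-base exon of 31.7% and 29.9% against 15.1% and 14.1%. Both values were lower in both MCF10A-YAP5SA samples, and both exons have lengths that keep the reading frame (edgeR adjusted p = 0.00012 for usage of the gene, called under 11 of 13 alternatives). The transcripts behind the call, CD44-212 and CD44-203, are short models of 352 and 484 nucleotides, and the 99-base exon is part of only 1 annotated transcript in the comparison, so its value is the share of that transcript. The exons lie on the plus strand at chr11:35219695-35219793 and chr11:35222629-35222742 (GRCh37).
CD44, 99 bases: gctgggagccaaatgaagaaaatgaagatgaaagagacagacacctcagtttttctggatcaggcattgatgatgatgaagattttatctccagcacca
CD44, 114 bases: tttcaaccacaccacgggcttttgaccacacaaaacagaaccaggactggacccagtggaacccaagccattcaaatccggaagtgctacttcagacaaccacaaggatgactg

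The tropomyosins, which coat actin filaments, also changed in usage. TPM4-218 took 28.8% and 24.5% of the TPM of TPM4 in the controls and 45.4% and 44.9% with YAP5SA, while TPM4-221 went from 44.5% and 44.2% to 28.8% and 28.03% (edgeR adjusted p = 0.0013). Both transcripts share their end, start 8957 bases apart and differ in coding sequence. TPM4 as a gene was at 790 and 803 CPM in the controls and 891 and 875 CPM with YAP5SA (log2 fold change 0.15, edgeR adjusted p = 0.049), below the size limit for a call. In TPM1 the coding transcript TPM1-208 went from 17.5% and 15.0% of the gene to 0.853% and 1.24% (edgeR adjusted p = 0.00018, called under 12 of 13 alternatives). CALD1, an actin-binding regulator of myosin, was called for noncoding transcripts of under 200 nucleotides, and this call was lost under 5 of 13 alternatives.

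The 12 largest shifts in share at 5 CPM or more were in CRAMP1, DOK4, RIMS2, E2F2, AL022151.1, LRIG3, COX19, INTU, JARID2, SIPA1L2, PHKA1 and PTPRE, from 77.5 percentage points down to 43.4. In 7 of these the lost transcript was listed at 0 in both MCF10A-YAP5SA samples, and DOK4, INTU, PTPRE and LRIG3 kept the call under only 4, 2, 4 and 5 of 13 alternatives. For AL022151.1 the lost transcript AL022151.1-204 was listed at 0% in control A and 79.9% in control C, which were summed as control 1. COX19, an assembly factor of cytochrome c oxidase, was the most stable of the 12 genes, with 12 of 13. Its retained-intron transcript COX19-203 took 21.5% and 18.3% of the gene in the controls and 66.2% and 73.8% with YAP5SA, and the transcript COX19-202, a target of nonsense-mediated decay, went from 63.0% and 65.8% to 18.3% and 12.2%. JARID2, a cofactor of the Polycomb complex PRC2, moved between coding transcripts that start 2786 bases apart: JARID2-202 went from 12.98% and 10.2% to 43.6% and 59.6%, under 7 of 13 alternatives.

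Only ASH1L and NCOA7 were called under all 13 alternatives, and both are named here after their values were seen. ASH1L encodes a histone methyltransferase. ASH1L-202 took 10.4% and 8.65% of its TPM in the controls and 34.0% and 38.7% with YAP5SA, and ASH1L-201 went from 49.3% and 56.3% to 27.9% and 26.1%. In NCOA7, a nuclear receptor coactivator, the coding transcript NCOA7-208 went from 16.8% and 15.6% to 0% and 0%.

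Transcript classes were compared by their share over all genes. Protein-coding transcripts held 52.7% and 52.7% of all TPM in the controls and 49.1% and 50.2% with YAP5SA (-3.08 percentage points), but on estimated reads their share was 1.31 points higher with YAP5SA. Retained-intron transcripts differed by -0.24 points of TPM and nonsense-mediated decay transcripts by 0.15. Retained-intron and nonsense-mediated decay transcripts together held 16.1% and 16.0% of all TPM in the controls and 15.8% and 16.0% with YAP5SA, a difference of -0.09 percentage points (exact two-sided permutation p = 0.67). With 2 samples a group the smallest p that this test allows is 0.33, so it cannot pass the threshold. On estimated reads the difference was -0.44 points (exact permutation p = 0.33).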

How the data were processed

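RNA from MCF10A cells was sequenced as poly(A) libraries. The authors trimmed the reads with cutadapt and quantified them with Salmon against GENCODE-style transcripts, while the sources used here give no version, genome build or strand setting of the estimates. The deposited values are estimated counts per transcript, which need not be whole and are not normalized, and TPM, which the authors' tool scaled by effective transcript length to the same total (1000000) in each library. The deposited effective lengths differ from the transcript lengths by a constant, so no fragment length was fitted and short transcripts are raised in TPM. The 6 libraries held 8489854 to 13556672 estimated counts. The precision of each value is limited by counting error and by the 2 samples a group.

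Estimated counts were summed per gene (60168 genes, 226030 transcripts) and rounded. Control A with C and B with D were summed, since they agreed within about the sampling noise. The 2 control, 4 MCF10A-TRAM2 and 2 MCF10A-YAP5SA samples were fitted together, so that 1 estimate of the spread was shared, with edgeR 4.0.16 in R 4.3.3 (filterByExpr, TMM, robust quasi-likelihood test, Benjamini-Hochberg adjustment). CPM are counts over the library total of the genes kept by the filter, multiplied by the sample's TMM factor. Calls of genes needed both an adjusted p below 0.05 and a log2 fold change beyond 0.5 in size. Transcript usage was tested with edgeR's diffSpliceDGE on transcripts with at least 10% of their gene, in genes with at least 50 counts in each of the 4 samples, and called at an adjusted p under 0.05 and a change of at least 10 percentage points. Gene lists are given by counts and medians without a test. Scripts were tested on simulated data.

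Gene positions, exons and starts came from GRCh37 and start regions from RefSeq's GRCh38.p14 table. No protein sequence was used. The members and lists were chosen with earlier results of these data known. Named genes were YAP1, the 12 protein-coding genes with the largest gain and loss of mean TPM, up to 3 called members of each list by adjusted p (up to 2 by level where none was called), the 12 largest usage shifts at 5 CPM or more, the called members of the splicing list, the 4 long noncoding RNA genes with the largest rise and fall, the 6 longest runs and families of at least 20 genes. The text gives a part of the named items, and some items are not reported here. Alternatives were DESeq2 1.42.0, RLE scaling, no filter, all 10 libraries separate, the first run alone, control and MCF10A-YAP5SA samples alone, a replicate block, MCF10A-TRAM2 B left out, each sample left out, a log2 limit of 1 and, for usage, limma 3.58.1, a 5% share filter or none, and a limit of 20 points. Ranking by CPM was added after the data were seen.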

Additional observations from a re-analysis of the deposited data

How the results depend on the processing

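With an absolute log2 fold change over 1, 1273 genes were higher and 1219 lower, and 341 list members were called. Leaving out each sample in turn gave 2224 to 2246 higher and 1965 to 2028 lower genes and 556 to 561 called list members. Other counts of called genes stayed within 1.5 times: DESeq2 gave 2227 and 1949, RLE scaling 2443 and 2179, all 10 libraries 2478 and 2232, the first run 2340 and 2062, no filter 2388 and 2598. Of the called genes, 1786 higher (74.0%) and 1574 lower (70.9%) were called under every alternative other than the larger limit, and 0 were called in the opposite direction. Usage counts depended on the settings: 214 with only control and MCF10A-YAP5SA samples, 42 with limma's diffSplice, 72 without a share filter, 53 at a limit of 20 points, and 100 to 313 without 1 sample. With the letters A and B as a replicate block, 2565 genes were higher, 2273 lower and 26 changed in usage, 16 of them shared. The letters pair nothing in the labels, and the deviations of control 1 and MCF10A-YAP5SA A correlated at 0.01. The change in the share of TPM in genes called higher was 9.02 percentage points, 11.8 on counts and 8.25 to 9.40 without 1 sample. The share of TPM in genes called lower changed by -4.46, -5.99 and -4.53 to -4.21, and the share of TPM on retained intron and nonsense-mediated decay transcripts by -0.09, -0.44 and -0.17 to -0.02, each for TPM, counts and without 1 sample. RPS6, not called, had a log2 fold change of -0.01, between -0.027 and 0.015 without 1 sample and above 0 without control replicate 2 alone. Of the named fold changes under alternatives, 2724 kept their direction and call and 111 lost the call. The cause of these differences was not tested. Every comparison rests on 2 samples a group, and the main edgeR fit took its spread from the 4 MCF10A-TRAM2 samples too.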
